A study of Mus musculus with 36 samples.

Results

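The 9 genes described here encode transcription factors that drive the step from neural progenitor to neuron: the neurogenins Neurog1, Neurog2 and Neurog3, the NeuroD factors Neurod1 and Neurod4, the related Nhlh1 and Nhlh2, the atonal homolog Atoh1, and Ebf2. They were chosen by name, as 9 of the 51734 gene symbols in the count table. All 9 were among the 20511 genes kept by a filter on low counts, several of them only because they were high in some of the groups. All but Ebf2 encode basic helix-loop-helix (bHLH) proteins. Ebf2 is a member of the EBF family, which dimerizes through a helix-loop-helix but binds DNA through another domain.

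The study asked how gene expression in E14 mouse embryonic stem cells (ESC, an established line) and in neural precursor cells (NPC) made from them depends on histone H3K4 methyltransferases. The 18 libraries used formed 6 groups of 3: wild type (WT), MLL3/4 dCD (dCD, a line whose MLL3 and MLL4 are catalytically dead) and MLL2 dTAG (MLL2dTAG, a line whose MLL2 carries a degradation tag), each as ESC and as NPC. The compound dTAG-13, which directs a tagged protein to degradation, is listed as a treatment of all 6 groups, WT and ESC included. Cells of the 3 NPC groups also received retinoic acid (RA), with dTAG-13 at 2 µM from day 1 of differentiation and harvest on day 4. The labels give neither the dose nor the duration of dTAG-13 in ESC. Each genotype is a line of its own, so that the edit and other differences between lines cannot be told apart. The labels do not say that replicates were separate cultures, so p-values measure only the spread between these libraries. The mRNA of the targeted genes (Kmt2b, Kmt2c and Kmt2d) does not check the labels, since neither a protein degron nor a dead catalytic site removes it.

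Proneural bHLH proteins bind E-boxes, short DNA motifs, as dimers with the broadly expressed E proteins encoded by Tcf3, Tcf4 and Tcf12. Neurogenins and Atoh1 act first: they push progenitors out of the cell cycle, switch on the Notch ligand Dll1 and start a cascade in which the NeuroD and Nhlh factors and the EBF proteins follow in young neurons. Notch signalling opposes them in neighbouring cells through Hes and Hey repressors, and Id proteins oppose them by taking up the E proteins.

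The annotation (GENCODE, GRCm38) places the neurogenins at chr13:56250478-56252163 (Neurog1, minus strand), chr3:127633135-127635631 (Neurog2, plus) and chr10:62133090-62134763 (Neurog3, plus). Neurod1 lies at chr2:79452521-79456751 (minus) and Neurod4 at chr10:130268152-130280240 (minus). Nhlh1 lies at chr1:172052292-172057573 (minus), Nhlh2 at chr3:102010076-102015492 (plus), Ebf2 at chr14:67233292-67430918 (plus) and Atoh1 at chr6:64729125-64731245 (plus). Most are compact genes: the union of exons is 1 block for Neurog1, Neurog3, Nhlh2 and Atoh1 and 2 blocks for Neurog2, Neurod1, Neurod4 and Nhlh1, whereas Ebf2 has 17. In 3 genes annotated exons overlap those of another gene: Neurog3 with 2010107G23Rik on the opposite strand, Neurod1 with Cerkl on the same strand and Gm26755 on the opposite strand, and Ebf2 with Gm10860 on the opposite strand. Whether counting used the strand was not given, so reads of these pairs cannot be told apart.

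MLL2 is known for H3K4 methylation at CpG-rich promoters, so the count of CG dinucleotides was taken in the 250 bases before the RefSeq start of each gene (GRCm38.p6, 8 of 9 genes matched, no entry for Ebf2). The median over 32851 such windows was 6, and 92.1% of them held CG. The 8 genes with an entry were uneven: Neurog1 held 29, Neurod1 22, Neurog3 18, Atoh1 14 and Neurog2 8, against 2 each in Nhlh1 and Nhlh2 and 2 or 7 at the starts listed for Neurod4. The general E-box CANNTG, searched on both strands, was in 66.2% of all windows; it occurred 2 times in Nhlh2, 1 time each in Neurog3, Neurod1 and Nhlh1, and was not in the windows of Neurog1, Neurog2, Neurod4 or Atoh1. A match of these letters is a description of the window and not a binding site, and the part of the CG count in the changes below was not tested. The windows of Neurog1, Nhlh1 and Atoh1 are shown, with CG in capitals, because their tests in NPC of the MLL2dTAG line had different outcomes: Neurog1 did not pass, Nhlh1 rose and Atoh1 fell. They lie at chr13:56252181-56252430 (minus strand), chr1:172057597-172057846 (minus) and chr6:64728875-64729124 (plus), and each is written 5′ to 3′ along its gene.
Neurog1: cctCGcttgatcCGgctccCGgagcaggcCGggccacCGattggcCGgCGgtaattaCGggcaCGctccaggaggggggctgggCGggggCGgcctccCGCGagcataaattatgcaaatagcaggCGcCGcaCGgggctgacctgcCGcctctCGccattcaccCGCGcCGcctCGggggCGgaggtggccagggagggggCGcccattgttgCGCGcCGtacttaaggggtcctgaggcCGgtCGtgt
Nhlh1: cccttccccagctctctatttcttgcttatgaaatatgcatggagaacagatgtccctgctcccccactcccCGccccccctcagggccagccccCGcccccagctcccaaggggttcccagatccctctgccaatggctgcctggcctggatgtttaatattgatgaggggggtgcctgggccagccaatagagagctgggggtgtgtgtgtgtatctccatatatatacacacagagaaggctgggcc
Atoh1: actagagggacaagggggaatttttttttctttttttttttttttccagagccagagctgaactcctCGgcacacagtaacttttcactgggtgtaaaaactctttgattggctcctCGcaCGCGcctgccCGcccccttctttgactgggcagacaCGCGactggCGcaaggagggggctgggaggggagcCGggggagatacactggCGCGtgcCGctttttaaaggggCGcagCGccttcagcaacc

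Libraries held 19.4 to 46.0 M (mega) counts, and levels are given as CPM, the usual unit of counts relative to the library total. A count of 3, the limit that a count of 0 allows, was worth 0.0652 to 0.154 CPM, for counting error only. Cell type markers were read over fixed lists of genes, as counts of genes called and as sums. From ESC to NPC of WT, 7 of 8 pluripotency markers fell and 6 of 8 neural progenitor markers rose. Over all genes 39.1% were called higher and 40.4% lower. Pax6 rose by 4.45 (SE 0.11) on the log2 scale, while Sox2, which both cell types express, fell by 4.43 (SE 0.06). The summed level of the 8 neural progenitor markers fell, with 431 to 452 CPM in WT ESC and 257 to 275 in WT NPC. Sox2 alone was at 311 ± 16.4 and 14.4 ± 0.383 CPM (SD, n = 3). A list of 12 general neuronal genes also summed to less, at 501 to 576 CPM in WT ESC and 386 to 396 in WT NPC. As counts, 7 of the 12 rose and 4 fell, with a median log2 change of 0.53 against -0.04 over all genes. Stmn2 alone was at 327 ± 37.8 CPM in WT ESC and 25.7 ± 0.0596 in WT NPC. NPC also held transcripts of other lineages, with all 6 endoderm markers up in WT (Gata6 by 5.25, SE 0.07). In bulk libraries, fewer cells of a type and less RNA per cell cannot be told apart.

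During differentiation of WT cells 7 of the 9 genes rose and 2 fell. The genes that rose were Neurog1, Neurog2, Neurod4, Nhlh1, Nhlh2, Ebf2 and Atoh1, and the genes that fell were Neurog3 and Neurod1. Over all genes tested, 79.5% were called between WT NPC and WT ESC (adjusted p under 0.05 by the edgeR quasi-likelihood test with Benjamini-Hochberg adjustment over all 20511 genes, called edgeR adjusted p here), 39.1% higher and 40.4% lower. The median log2 change of the 9 genes was 5.34 against -0.04 over all genes. Neurog1, Neurog2, Neurod4, Nhlh1, Nhlh2 and Atoh1 passed the filter on low counts only through NPC libraries, and Neurog3 only through ESC libraries. For these genes the filter and the calls between stages, in any line, rest on the same high groups. Their calls are therefore not support of their own beside the counts given below.

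**Figure D1:**
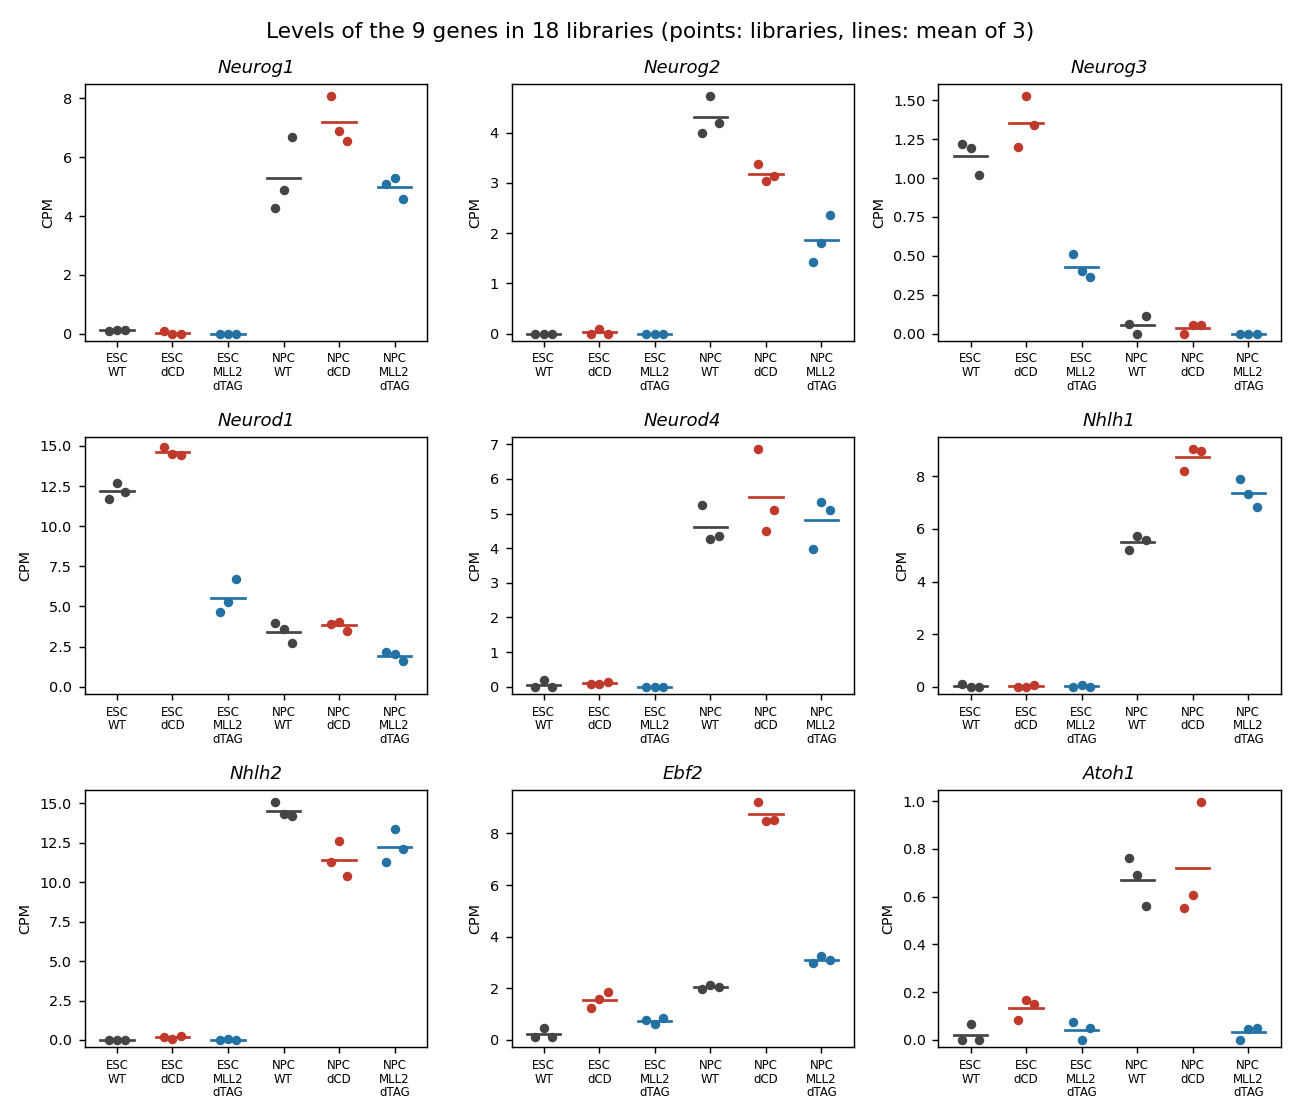
Level of each of the 9 genes in the 18 libraries, in CPM on a linear axis of its own per gene. Points are libraries and lines are means of 3, in grey for WT, red for dCD and blue for MLL2dTAG. Neurod1 and Neurog3 were highest in ESC, and the other 7 genes were near 0 in ESC of WT.

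The neurogenins split by stage. Neurog1, which starts neurogenesis in sensory and hindbrain lineages, had 2, 4 and 4 counts in the WT ESC libraries and 135, 184 and 240 in WT NPC. The groups did not overlap, and the change was 5.34 (SE 0.32, edgeR adjusted p = 8.5e-17). Neurog2, its close relative in spinal cord and cortex, had no count in WT ESC and 126, 178 and 150 in WT NPC. Neurog3, better known as the factor that starts the endocrine program of the pancreas, ran the other way, with 23, 36 and 30 counts in WT ESC and 2, 0 and 4 in WT NPC. It fell by 4.23 (SE 0.57, edgeR adjusted p = 4.3e-08), or by 3.62 without NPC WT replicate 2 and 5.11 without NPC WT replicate 3. Its overlapping neighbour 2010107G23Rik was at 19.7 ± 1.92 CPM in WT ESC and 8.27 ± 0.736 in WT NPC (SD, n = 3). Of the pancreatic endocrine markers, Pax4 and Nkx2-2 had no count in WT ESC and Pdx1 none in WT NPC. Chga, the only 1 of the 6 that passed the filter, was at 15.5 ± 0.807 CPM in WT ESC. It fell by 2.40 (SE 0.11), to 2.92 ± 0.143 CPM in WT NPC.

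The factors that act later in the cascade mostly rose too. Neurod4, which works with the neurogenins in young neurons, had 0, 6 and 0 counts in WT ESC and 166, 160 and 156 in WT NPC. Nhlh1, a marker of neurons just after their last division, had 2, 0 and 0 counts against 164, 216 and 200, a ratio of 216 with a 95% counting interval of 59.7 to 1792. Its relative Nhlh2, known for its role in hypothalamic neurons, had no count in WT ESC and 478, 538 and 508 in WT NPC. These 3 genes were thus at or near 0 in ESC and at 156 counts or more in every WT NPC library.

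Ebf2, which supports neuronal migration and maturation, started from a low but measurable level. It had 2, 14 and 3 counts in WT ESC and 62, 80 and 73 in WT NPC, and rose by 3.06 (SE 0.31, edgeR adjusted p = 4.9e-11). The library ESC WT replicate 2 held most of its ESC counts, and without it the rise was 4.26. Atoh1, the factor of cerebellar granule cells, dorsal spinal interneurons and hair cells, had 0, 2 and 0 counts in WT ESC and 24, 26 and 20 in WT NPC, a ratio of 26.1 with a 95% counting interval of 6.97 to 220. Neurod1, which acts in both neurons and pancreatic endocrine cells, was the most abundant of the 9 in ESC. Its level was 11.7, 12.7 and 12.1 CPM in the WT ESC libraries and 3.96, 3.62 and 2.71 CPM in WT NPC, a fall of 1.83 (SE 0.13, edgeR adjusted p = 4.5e-15) with no overlap.

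The same stage change was present in the edited lines for most of the genes. In dCD, 7 of the 9 rose and 2 fell from ESC to NPC, where 77.6% of all genes were called, 38.7% higher and 39.0% lower. In MLL2dTAG 6 rose and 2 fell, where 78.2% of all genes were called, 39.9% higher and 38.3% lower. The gene not called in MLL2dTAG was Atoh1, with 2, 0 and 2 counts in ESC and 0, 2 and 2 in NPC (edgeR adjusted p = 0.84). Neurod1 fell by 1.93 (SE 0.13) in dCD and by 1.54 (SE 0.15) in MLL2dTAG.

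Divided by exon length, so that genes can be set beside each other, the level in WT NPC was highest for Neurog1 at 3.14 ± 0.749 CPM per kilobase (SD, n = 3). It was followed by Nhlh2 (2.69 ± 0.0938), Nhlh1 (2.24 ± 0.117), Neurog2 (1.93 ± 0.175), Neurod4 (1.38 ± 0.164) and Neurod1 (1.26 ± 0.236). Atoh1 (0.316 ± 0.0482) and Ebf2 (0.295 ± 0.0121) were lower, and Neurog3 was lowest (0.0349 ± 0.0335). Neighbours in this order whose libraries overlapped were Neurog1 and Nhlh2, Nhlh1 and Neurog2, Neurod4 and Neurod1, and Atoh1 and Ebf2. In dCD NPC the order began with Neurog1 (4.26 ± 0.477) and Nhlh1 (3.55 ± 0.194), which did not overlap, and Ebf2 reached 1.26 ± 0.0596, within a range shared with Neurod1. In MLL2dTAG NPC Nhlh1 (2.98 ± 0.214) and Neurog1 (2.96 ± 0.211) overlapped at the top. In WT ESC Neurod1 (4.46 ± 0.199) and Neurog3 (0.685 ± 0.066) led without overlap, and the other genes had means of 0.0742 CPM per kilobase or less.

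**Figure D2:**
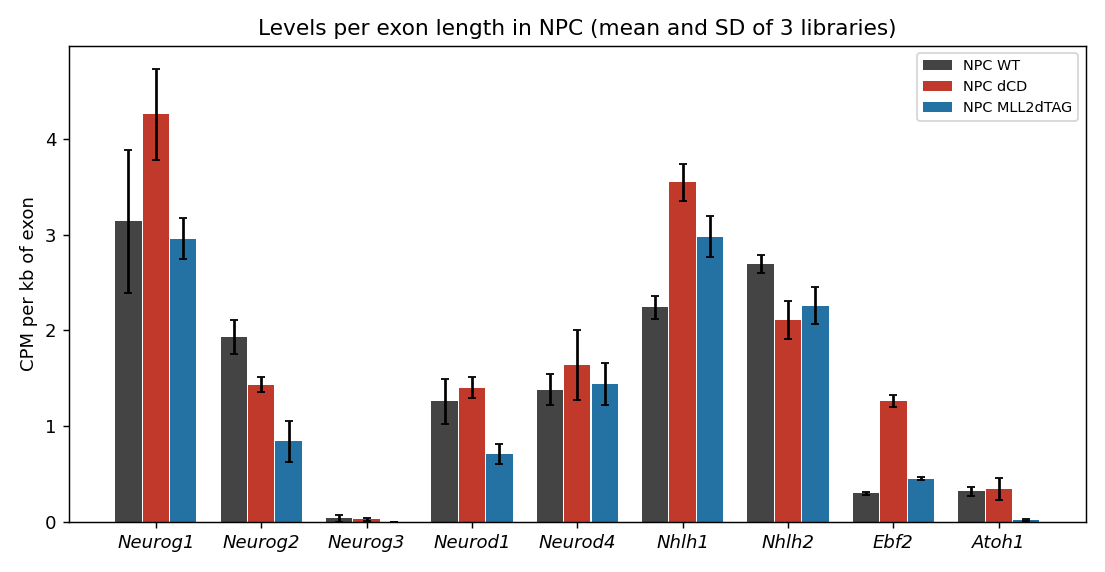
Level of the 9 genes in NPC as CPM per kilobase of annotated exon, from 0, on a linear axis. Bars are means and lines the SD of 3 libraries. Neurog1 was at 3.14 in WT and 4.26 in dCD, and Ebf2 at 0.295 in WT and 1.26 in dCD.

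In NPC of the MLL2dTAG line 2 of the 9 genes rose against WT and 5 fell. Over all genes 61.7% were called, 33.3% higher and 28.4% lower. Nhlh1 and Ebf2 rose, and Neurog2, Neurog3, Neurod1, Nhlh2 and Atoh1 fell, while Neurog1 and Neurod4 did not pass the test. The median log2 change was -0.24 for the 9 genes and 0.03 for all genes. The number that fell was 3 or 4 in each of the 6 fits that left out 1 of these libraries, and 3 without NPC WT replicate 3. The number that rose was 1 without NPC MLL2dTAG replicate 1.

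Atoh1 fell most among the genes with counts in both groups, and Neurog3, with no count in MLL2dTAG, cannot be ranked beside it. Atoh1 had 24, 26 and 20 counts in the WT libraries and 0, 2 and 2 in MLL2dTAG, so that no MLL2dTAG library came near any WT library. In CPM this was 0.67 ± 0.102 against 0.0321 ± 0.0281 (SD, n = 3), a log2 change of -4.15 (SE 0.67, edgeR adjusted p = 1.7e-06), and it stayed between -4.54 and -3.70 in every other setting tried. Atoh1 passed the filter on low counts only through NPC of WT and dCD, where it was high. Its call is therefore not support of its own beside these counts. Neurog2 was at 3.99, 4.74 and 4.19 CPM in WT and at 1.42, 1.81 and 2.37 CPM in MLL2dTAG. These groups did not overlap, and the change was -1.20 (SE 0.21, edgeR adjusted p = 7.9e-06). Neurog1 was at 4.27, 4.90 and 6.70 CPM in WT and at 5.10, 5.28 and 4.59 CPM in MLL2dTAG, with all 3 MLL2dTAG libraries inside the WT range. Its difference of -0.09 (SE 0.16) had an edgeR adjusted p of 0.66.

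Among the later factors, Neurod1 was lower and its relative Neurod4 did not pass the test. Neurod1 was at 3.96, 3.62 and 2.71 CPM in WT and 2.17, 2.01 and 1.62 CPM in MLL2dTAG, a change of -0.83 (SE 0.16, edgeR adjusted p = 2.9e-05) without overlap. Its same-strand neighbour Cerkl was at 0.114 ± 0.0531 and 0.121 ± 0.0342 CPM in these groups, and Gm26755 had no count in NPC. Neurod4 was at 5.25, 4.26 and 4.36 CPM in WT and 3.97, 5.32 and 5.11 CPM in MLL2dTAG, overlapping groups with a difference of 0.06 (SE 0.19, edgeR adjusted p = 0.79). Its sign was not fixed, with -0.03 under upper-quartile scaling and -0.02 without NPC MLL2dTAG replicate 2.

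Nhlh1 and Nhlh2, which share a bHLH subfamily, moved in opposite directions. Nhlh1 was at 5.19, 5.75 and 5.59 CPM in WT and at 7.89, 7.33 and 6.84 CPM in MLL2dTAG, with every MLL2dTAG library above every WT library. It rose by 0.41 (SE 0.14, edgeR adjusted p = 0.012), a call lost without NPC MLL2dTAG replicate 1 (0.36, adjusted p = 0.053). Nhlh2 was at 15.1, 14.3 and 14.2 CPM in WT and at 11.3, 13.4 and 12.1 CPM in MLL2dTAG, a smaller change of -0.24 (SE 0.10, edgeR adjusted p = 0.038). That call was lost in DESeq2 (adjusted p = 0.069) and without NPC WT replicate 1 (0.12), 2 (0.066) or 3 (0.058) or NPC MLL2dTAG replicate 1 (0.17) or 3 (0.096).

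Ebf2 rose moderately, from 1.96, 2.13 and 2.04 CPM in WT to 3.0, 3.25 and 3.1 CPM in MLL2dTAG, by 0.61 (SE 0.18, edgeR adjusted p = 0.0042) and with no overlap. Neurog3 had 2, 0 and 4 counts in WT and none in MLL2dTAG, which makes it at least 2.24-fold lower against a floor of 3 counts over the group (edgeR adjusted p = 0.018). A WT library also had no count, and the call was lost without NPC WT replicate 3 (adjusted p = 0.11) or NPC MLL2dTAG replicate 2 (0.052). Neurog3 passed the filter on low counts only through its ESC libraries, so this call is not support for a change in NPC.

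**Figure D3:**
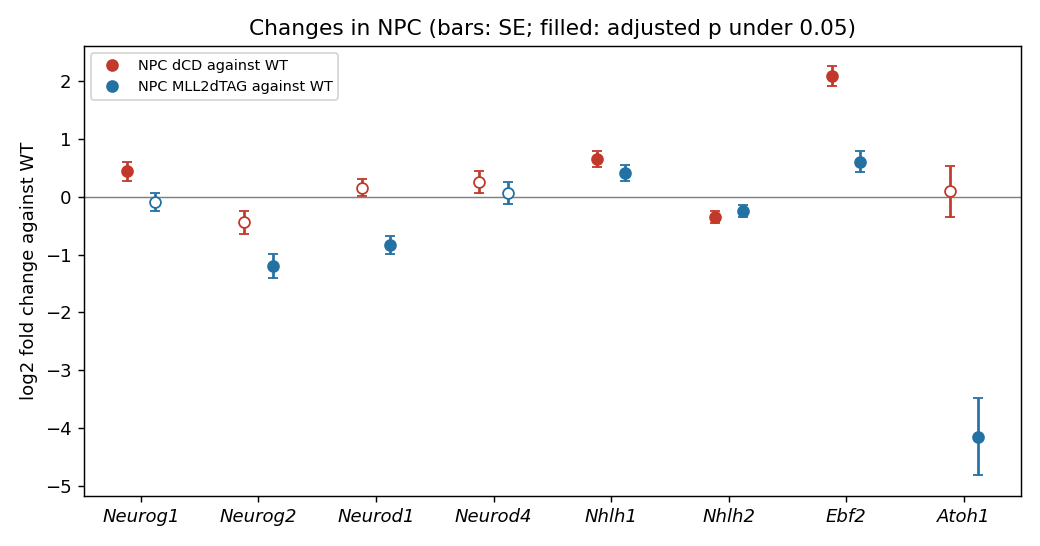
Log2 fold change against WT in NPC for 8 of the genes, in red for dCD and blue for MLL2dTAG, on a linear axis. Lines are SE and filled points have an adjusted p under 0.05; Neurog3 is left out because MLL2dTAG had no count. Ebf2 rose by 2.09 in dCD and Atoh1 fell by 4.15 in MLL2dTAG.

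Marker lists also differed between the NPC groups. The summed level of the 8 pluripotency markers was 120 CPM in each WT library, 131 to 138 in dCD and 295 to 301 in MLL2dTAG, with Pou5f1 at 1.01 ± 0.234 CPM in WT and 26.9 ± 2.08 in MLL2dTAG and Dppa3 at 0 in all NPC. Most of the sum in WT and dCD was Tbx3, at 90.9 ± 0.369 and 92.6 ± 3.85 CPM. Tbx3 was also the list member that rose from WT ESC to WT NPC, by 0.76 (SE 0.04). Klf4 was at 14.0 ± 0.798 CPM in WT and 26.6 ± 1.45 in dCD. The 6 endoderm markers summed to 210 to 219 CPM in WT, 182 to 188 in dCD and 529 to 546 in MLL2dTAG, with none of them at 0. The 8 neural progenitor markers summed to 257 to 275 CPM in WT, 440 to 482 in dCD and 302 to 310 in MLL2dTAG. The 5 glial markers summed to 65.3 to 68.9 CPM in WT, 41.9 to 43.6 in dCD and 26.8 to 29.8 in MLL2dTAG, and the 5 mesenchyme markers to 500 to 518, 662 to 737 and 853 to 865 CPM. The 5 neural crest markers summed to 39.3 to 43.1, 45.6 to 46.7 and 54.4 to 55.7 CPM in the same order. Most of the mesenchyme sum in WT was Col3a1 and Col1a1, at 295 ± 9.98 and 156 ± 7.33 CPM. As counts, 4 mesenchyme markers rose and 1 fell in dCD, and 2 rose and 3 fell in MLL2dTAG (median -0.64). Over all genes 26.7% rose and 26.8% fell in dCD, and 33.3% and 28.4% in MLL2dTAG. Mesoderm markers stayed at 2.45 CPM or less in sum in every NPC library, with Msgn1 at 0, and pancreatic endocrine markers at 4.85 CPM or less. The part of these differences in the levels of the 9 genes was not tested.

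In NPC of the dCD line 3 of the 9 genes rose (Neurog1, Nhlh1 and Ebf2), Nhlh2 fell and 5 did not pass the test. Over all genes 53.5% were called, 26.7% higher and 26.8% lower. The median log2 change was 0.16 for the 9 genes and -0.02 for all genes. This comparison shares its WT libraries with that of MLL2dTAG, so values of the lines are set side by side without a measure of likeness.

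Ebf2 stood at 1.96, 2.13 and 2.04 CPM in WT and at 9.23, 8.5 and 8.54 CPM in dCD. The dCD libraries were all well above the WT libraries, a rise of 2.09 (SE 0.17, edgeR adjusted p = 6.6e-13) that ranged from 2.06 to 2.13 over the other settings tried. Its antisense neighbour Gm10860 had 6 counts in dCD NPC and none in the other 5 groups. Nhlh1 was at 5.19, 5.75 and 5.59 CPM in WT and 8.19, 9.05 and 8.98 CPM in dCD, a rise of 0.66 (SE 0.14, edgeR adjusted p = 0.00013) with no overlap. Nhlh2 fell by 0.35 (SE 0.10, edgeR adjusted p = 0.0047), from 15.1, 14.3 and 14.2 to 11.3, 12.6 and 10.4 CPM, so that here too Nhlh1 and Nhlh2 moved apart.

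Of the neurogenins only Neurog1 passed the test in dCD. Neurog1 was at 4.27, 4.90 and 6.70 CPM in WT and 8.10, 6.90 and 6.57 CPM in dCD. The groups overlapped, and the rise of 0.44 (SE 0.16, edgeR adjusted p = 0.018) was lost in DESeq2 (adjusted p = 0.052) and without NPC dCD replicate 1 (0.11), NPC WT replicate 1 (0.13) or NPC WT replicate 2 (0.079). Neurog2 was at 3.99, 4.74 and 4.19 CPM in WT and 3.37, 3.04 and 3.14 CPM in dCD. Its groups did not overlap, but the difference of -0.44 (SE 0.20) had an edgeR adjusted p of 0.065; it passed when only the compared groups were fitted (0.0085) or counts were halved (0.013). Neurod1 (0.16, SE 0.15), Neurod4 (0.25, SE 0.19) and Atoh1 (0.10, SE 0.44) did not pass the test and their groups overlapped. Atoh1 had 18, 22 and 34 counts in dCD against 24, 26 and 20 in WT. Neurog3 had 4 counts over the dCD libraries and 6 over WT.

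The edited lines were compared directly in NPC. Of the 9 genes 5 were lower in MLL2dTAG than in dCD and none higher, while 55.9% of all genes were called, 31.6% higher and 24.3% lower. Atoh1 had 4 counts against 74 (-4.26, SE 0.67, edgeR adjusted p = 1.2e-06). It passed the filter on low counts only through NPC of WT and dCD, so this call too is not support of its own. Ebf2, which rose in both lines against WT, was lower in MLL2dTAG than in dCD by 1.49 (SE 0.16, edgeR adjusted p = 5.2e-10). Neurod1 was lower by 0.99 (SE 0.16), Neurog2 by 0.76 (SE 0.21) and Neurog1 by 0.52 (SE 0.16), each with groups that did not overlap and edgeR adjusted p values of 1.6e-06, 0.0028 and 0.0044. For Nhlh1 the difference was -0.25 (SE 0.14, edgeR adjusted p = 0.12), and it passed under upper-quartile scaling (adjusted p = 0.039), with halved counts (0.03) and in the fit of these groups alone (0.0067). Nhlh2 (0.10, SE 0.10), Neurod4 (-0.18, SE 0.18) and Neurog3 did not pass the test.

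In ESC most of the 9 genes were at or near 0, and calls rested on few counts. When only the ESC groups compared were fitted, the filter dropped Neurog1, Neurog2, Neurod4, Nhlh1, Nhlh2 and Atoh1. These genes entered the tests in ESC only through their NPC libraries. In the dCD line 2 rose (Ebf2 and Nhlh2) and none fell, while 48.3% of all genes were called, 25.7% higher and 22.6% lower. Without ESC WT replicate 2 the number that rose was 4, with Atoh1 (adjusted p = 0.023) and Neurod4 (0.032) added, and without ESC dCD replicate 1 the number that fell was 1, Neurog1 (0.017). In the MLL2dTAG line 1 rose (Ebf2) and 4 fell (Neurog1, Neurog3, Neurod1 and Neurod4), while 56.9% of all genes were called, 28.7% higher and 28.2% lower. Of the 30 counts from 1 to 10 that the 9 genes had in any library, 29 were even, which is more than the 60.8% to 66.5% of such counts over all genes. An alternative with halved counts, which treats both mates of a read pair as counted, was run beside each test.

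Ebf2 rose in ESC of both lines. It had 2, 14 and 3 counts in WT, 29, 38 and 50 in dCD and 21, 20 and 32 in MLL2dTAG, so that every library of the edited lines lay above every WT library. The changes were 2.68 (SE 0.34, edgeR adjusted p = 3.2e-08) in dCD and 1.61 (SE 0.38, edgeR adjusted p = 4e-04) in MLL2dTAG, and without ESC WT replicate 2 they were 3.87 and 2.80. Neurod1 was at 11.7, 12.7 and 12.1 CPM in WT, 14.9, 14.5 and 14.4 in dCD and 4.65, 5.25 and 6.71 in MLL2dTAG, 3 groups without overlap. Its fall of 1.12 in MLL2dTAG (SE 0.12, edgeR adjusted p = 9.9e-10) passed the test. Its difference of 0.26 in dCD (SE 0.12, edgeR adjusted p = 0.063) passed only with halved counts (0.033), in the fit of the 2 groups alone (0.026) and with the scaling that DESeq2 uses (0.048). Cerkl, whose exons overlap those of Neurod1, was at 0.839 ± 0.0716, 0.991 ± 0.213 and 0.803 ± 0.24 CPM in these groups.

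Neurog3 had 23, 36 and 30 counts in WT, 28, 37 and 36 in dCD and 14, 13 and 14 in MLL2dTAG. It fell in MLL2dTAG by 1.42 (SE 0.42, edgeR adjusted p = 0.0045) with no overlap, and its difference in dCD was 0.25 (SE 0.38, edgeR adjusted p = 0.63). The overlapping gene 2010107G23Rik had lower means in both lines, at 19.7 ± 1.92 CPM in WT, 10.8 ± 2.15 in dCD and 5.63 ± 0.827 in MLL2dTAG. Neurog1, Nhlh2 and Neurod4 passed the filter on low counts only through their NPC libraries. Their calls in ESC are therefore not support for a change. Neurog1 had 10 counts over the WT libraries, 2 over dCD and none over MLL2dTAG. In MLL2dTAG it was at least 4.16-fold lower (edgeR adjusted p = 0.0023). Nhlh2 had 12 counts over dCD and none over WT, at least 4.21-fold higher (edgeR adjusted p = 0.0012). Neurod4 had no count in MLL2dTAG against 6 in WT, all of them in ESC WT replicate 2, and its call (edgeR adjusted p = 0.028) was lost without that library (adjusted p = 1), with halved counts (0.084) and without ESC MLL2dTAG replicate 1 (0.054), 2 (0.062) or 3 (0.07).

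The difference between a line's change in NPC and its change in ESC was tested with an interaction term. For dCD this passed for 2 of the 9 genes, Neurog1 with a more positive and Nhlh2 with a more negative change in NPC, while 42.9% of all genes passed (20% upward and 22.9% downward). For MLL2dTAG this passed for Neurog1 and Neurod4, more positive in NPC, and for Atoh1, more negative, while 49.0% of all genes passed (26.4% upward and 22.6% downward). All of the called genes passed the filter on low counts only through their NPC libraries. Their calls are therefore not support for a difference between stages. Ebf2 had more counts in ESC, with 117 over dCD and 73 over MLL2dTAG, but only 19 over WT. It rose by 1.61 in ESC and 0.61 in NPC of MLL2dTAG, a difference of -1.0 (SE 0.43, edgeR adjusted p = 0.051). In dCD it rose by 2.68 and 2.09, a difference of -0.59 (SE 0.41, edgeR adjusted p = 0.27). Without ESC WT replicate 2 these differences were -2.19 (adjusted p = 0.00089) and -1.78 (adjusted p = 0.0078). That setting rests on WT ESC libraries of 2 and 3 counts. For Neurod1 the difference was 0.30 (SE 0.20, edgeR adjusted p = 0.24) in MLL2dTAG and -0.10 (SE 0.19, edgeR adjusted p = 0.73) in dCD.

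Other genes of the pathway were read from fixed lists in NPC. Their counts stand beside the shares of all genes called in the same comparisons, 26.7% higher and 26.8% lower in dCD and 33.3% higher and 28.4% lower in MLL2dTAG. Of 18 measured proneural targets and neurogenic genes, 13 rose and 2 fell in dCD (median 0.67), and 10 rose and 6 fell in MLL2dTAG (median 0.30). The medians over all genes were -0.02 and 0.03. Gadd45g, a cell cycle exit gene of the neurogenin program, rose in both, by 1.02 (SE 0.10) in dCD and 0.79 (SE 0.10) in MLL2dTAG. Dll1, the Notch ligand, rose by 0.92 (SE 0.11) in MLL2dTAG, from 4.10 ± 0.116 to 7.72 ± 0.883 CPM, and by 0.72 (SE 0.11) in dCD. Neurod2, a later NeuroD factor, had no count in WT, 110 over the dCD libraries and 11 over MLL2dTAG. Rcor2, which encodes a corepressor, fell by 1.58 (SE 0.04) in MLL2dTAG and by 0.84 (SE 0.04) in dCD.

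Of the 12 Notch effectors and inhibitors of bHLH activity, 5 rose and 3 fell in dCD (median 0.16), and 8 rose and 2 fell in MLL2dTAG (median 0.35), where 33.3% of all genes rose and 28.4% fell, against 26.7% and 26.8% in dCD. The Notch effector Hey2 rose by 1.33 (SE 0.15) in dCD and 1.68 (SE 0.15) in MLL2dTAG. Hey1 moved in opposite directions, by -0.89 (SE 0.08) in dCD and 0.58 (SE 0.07) in MLL2dTAG. The Id genes, whose proteins sequester E proteins, all rose in MLL2dTAG, Id1 by 0.33 (SE 0.06), Id2 by 0.36 (SE 0.04), Id3 by 0.41 (SE 0.05) and Id4 by 0.96 (SE 0.16). In dCD they were split: Id3 rose by 0.22 (SE 0.05) and Id4, the least abundant at 5.31 ± 0.602 CPM, by 0.45 (SE 0.17), while Id1 fell by 0.42 (SE 0.06) and Id2 by 0.24 (SE 0.04). Of the E protein genes, Tcf4 rose by 0.32 (SE 0.04) in dCD, with a difference of -0.06 (SE 0.04) in MLL2dTAG that did not pass, and Tcf3 fell by 0.24 (SE 0.05) in dCD and by 0.12 (SE 0.05) in MLL2dTAG.

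Among 16 measured relatives of the 9 genes, 4 rose and 3 fell in dCD (median 0.07), and 5 rose and 3 fell in MLL2dTAG (median -0.12), none of these shares being above that of all genes (26.7% higher and 26.8% lower in dCD, 33.3% and 28.4% in MLL2dTAG). The EBF genes did not move as 1 family: in dCD Ebf1 and Ebf3 rose with Ebf2, by 1.04 (SE 0.11) and 0.85 (SE 0.12), while Ebf4 fell by 0.21 (SE 0.09), from 23.9 ± 0.992 to 20.7 ± 2.15 CPM. In MLL2dTAG Ebf1 rose by 0.48 (SE 0.11) and Ebf3 by 0.47 (SE 0.12), and Ebf4 (0.07, SE 0.08) did not pass the test. In MLL2dTAG, Olig3, a dorsal progenitor factor, fell by 2.28 (SE 0.18), from 6.87 ± 0.653 to 1.41 ± 0.181 CPM, and Bhlhe23 by 4.75 (SE 0.61), with 5 counts against 131. In dCD Bhlhe23 fell by 1.07 (SE 0.42), and Olig3 had 708 counts against 722 in WT and did not pass the test.

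Of 12 general neuronal genes, 7 rose and 3 fell in dCD (median 0.47), against 4 and 6 in MLL2dTAG (median -0.16), and in the direct test of MLL2dTAG against dCD none rose and 9 fell. The shares over all genes were 26.7% higher and 26.8% lower in dCD, 33.3% and 28.4% in MLL2dTAG, and 31.6% and 24.3% in the direct test. Gap43, a growth cone protein, rose by 1.42 (SE 0.08) in dCD and fell by 0.28 (SE 0.08) in MLL2dTAG. The microtubule regulator Stmn2 rose in both, by 1.87 (SE 0.06) in dCD and 0.25 (SE 0.06) in MLL2dTAG. Of the neurofilament genes, Nefm fell by 0.54 (SE 0.07) in dCD and 2.07 (SE 0.08) in MLL2dTAG, and Nefl by 0.65 (SE 0.07) and 0.57 (SE 0.07). Rbfox3, which encodes the neuronal marker NeuN, fell by 0.50 (SE 0.17) and 0.89 (SE 0.17). Of 15 neuron subtype genes, 7 rose and 1 fell in dCD (median 0.72), and 5 rose and 6 fell in MLL2dTAG (median -0.08). Phox2a, a factor of autonomic and visceral motor neurons, fell in MLL2dTAG (-3.72, SE 0.42) and in dCD (-1.62, SE 0.32). Isl2, of motor and sensory neurons, rose in both, by 1.96 (SE 0.39) in dCD and 1.78 (SE 0.39) in MLL2dTAG. Stmn2 was also abundant in ESC, at 327 ± 37.8 CPM in WT ESC against 25.7 ± 0.0596 in WT NPC.

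**Figure D4:**
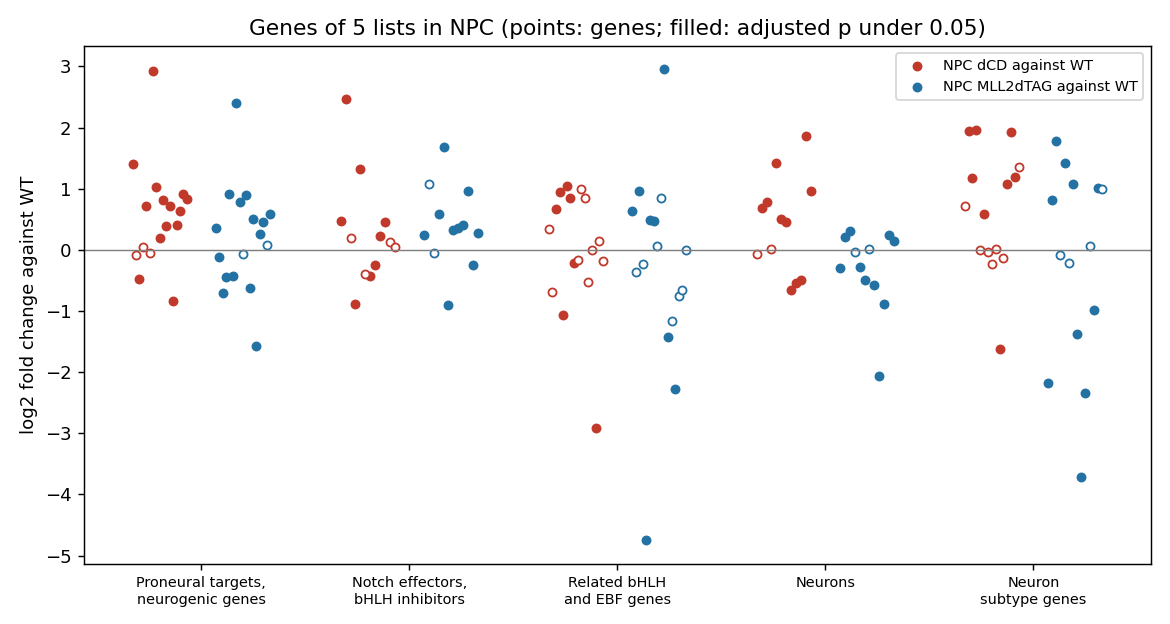
Log2 fold change against WT in NPC for the genes of 5 fixed lists, in red for dCD and blue for MLL2dTAG, on a linear axis. Each point is a gene, filled where the adjusted p was under 0.05, and genes with 3 or fewer counts in a group are left out. Among general neuronal genes 7 rose and 3 fell in dCD, and 4 rose and 6 fell in MLL2dTAG.

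For each of the 9 genes the genes with the nearest profile over the 6 groups were found, by the root mean square difference of group means on a log2(CPM + 0.5) scale, each gene centred on its own mean. For genes under about 1 CPM, such as Atoh1 and Neurog3, the added 0.5 CPM sets most of the profile, so that nearness on this scale does not mean a like fold change: Eci2, nearest to Atoh1, was at 31.1 CPM in WT ESC and 59.2 in WT NPC. Neurog1 and Neurod4 shared their nearest pair, Adcy2 (0.0936 and 0.135) and Fstl5 (0.135 and 0.136), and among the 9 genes they were nearest to each other (0.175). The added 0.5 CPM weighs on these genes too, since both were near 0 in ESC. In WT Neurog1 rose 41.7-fold and Neurod4 60-fold, while Adcy2 went from 3.33 to 39.7 CPM. Nhlh1 was nearest to St18 (0.0917) and Tgm7 (0.13), and Neurog2 to Chgb (0.095) and Rorb (0.117). Neurog3 was nearest to Vav1 (0.0736) and Stpg1 (0.0965), Neurod1 to Ticam2 (0.145) and Pkhd1 (0.156), and Atoh1 to Eci2 (0.113) and Cacng8 (0.116). Neurog3 and Neurod1, the genes that fell on differentiation, were nearest to each other among the 9 (0.259). Their folds in WT were unlike, with Neurog3 19.9-fold and Neurod1 3.59-fold lower in NPC. Ebf2 had the least close neighbours, Shisa4 (0.308) and Pik3r3 (0.315), followed by Nhlh2 with 5730596B20Rik (0.181) and Tmem176a (0.19).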

How the data were processed

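RNA was sequenced from mouse ESC and NPC with the TruSeq Stranded mRNA kit, per the labels' protocols. The authors deposited whole-number counts per gene symbol, made with HTSeq per the submitters' processing notes, with no normalization. The sources used here do not give the aligner, genome build or strand setting of this set. In the table used, 6 columns whose names did not tell samples apart were not used, and neither were 12 columns of another table.

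The 9 genes, the gene lists and the tests were chosen with earlier results of these data known. The counts went into edgeR 4.0.16 under R 4.3.3: filterByExpr left 20511 genes, TMM factors were 0.967 to 1.05, and 1 quasi-likelihood model with 6 group means was fitted to all 18 libraries (12 residual degrees of freedom). F tests were two-sided, with Benjamini-Hochberg adjustment over all genes and calls at adjusted p under 0.05. SE came from the log2 change and the F statistic. Where a group had no count, folds were taken against 3 counts over that group, and with 1 to 3 counts the ratio has an exact 95% counting interval. Reads are not independent molecules, so both cover counting error only. CPM used TMM factors, and CPM per kilobase used exon unions of GENCODE (GRCm38).

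From each list, up to 4 called genes with the largest change and a mean of at least 1 CPM were eligible to be named, other members being named only beside them, and 2 nearest profiles per gene. Alternatives were other scalings, no filter, halved counts, a replicate block, only the groups compared, DESeq2 1.42.0, single libraries left out and, chosen after seeing the data, offsets for GC content and length (values for 95.8% of genes tested). A simulation covered only the MLL2dTAG against WT comparison in NPC, with 20511 genes. In it 94% of 100 2-fold changes and 100% of 100 4-fold changes were recovered. These rates were not split by count level. They therefore do not show what would be recovered for genes with few counts, such as Atoh1 and Neurog3, or in ESC.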

Additional observations from a re-analysis of the deposited data

Results flagged for a closer look

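A test of whether a genotype's change against WT differed between NPC and ESC passed for 5 pairs of gene and line. Over all genes 42.9% were called in this test for dCD and 49.0% for MLL2dTAG. For Neurog1 in dCD the edgeR adjusted p was 0.041: it had 738 counts against 559 in NPC and 2 against 10 in ESC. That call was lost with DESeq2 (0.051), halved counts (0.12) and no filter (0.057), and without ESC dCD replicate 2 (0.13) or 3 (0.15), ESC WT replicate 2 (0.078) or 3 (0.088), NPC dCD replicate 1 (0.051) or NPC WT replicate 2 (0.052). For Nhlh2 in dCD it was 0.00064, with 1179 counts against 1524 in NPC and 12 against 0 in ESC. For Neurog1 in MLL2dTAG it was 0.0035, with 587 counts against 559 in NPC and 0 against 10 in ESC. For Neurod4 in MLL2dTAG it was 0.03, with 571 counts against 482 in NPC and 0 against 6 in ESC, and it was 1 without ESC WT replicate 2, 0.058, 0.066 and 0.074 without ESC MLL2dTAG replicates 1, 2 and 3, and 0.089 with halved counts. For Atoh1 in MLL2dTAG it was 0.0098, with 4 counts against 70 in NPC and 4 against 2 in ESC, and it was 0.067 and 0.056 without ESC MLL2dTAG replicates 1 and 3. All 5 rest on ESC groups of 12 counts or fewer. The genes passed the filter on low counts only through their NPC libraries, so the calls are not support for a difference between stages.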

How the results depend on the processing

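Of the alternatives run, none changed the numbers of the 9 genes that rose or fell between ESC and NPC in any line. In NPC dCD the number lower went from 1 to 2 with halved counts and with only the groups compared. In ESC MLL2dTAG the number lower went from 4 to 2 with only the groups compared, where the filter dropped Neurog1 and Neurod4. For the difference between stages in MLL2dTAG the number lower went from 1 to 2 with RLE scaling, upper-quartile scaling, DESeq2 and offsets for GC content and length, each adding Ebf2, and the number higher from 2 to 1 with halved counts. For that in dCD the number higher went from 1 to 0 with no filter, halved counts and DESeq2. Single calls were also lost with DESeq2 (Nhlh2 in NPC MLL2dTAG, Neurog1 in NPC dCD) and halved counts (Neurod4 in ESC MLL2dTAG), and gained for Neurod1 in ESC dCD (RLE scaling, halved counts, only the groups compared) and Nhlh1 in NPC MLL2dTAG against dCD (upper-quartile scaling, halved counts, only the groups compared). With only the groups compared, the filter dropped Neurog1, Neurog2, Neurod4, Nhlh1, Nhlh2 and Atoh1 in both ESC comparisons against WT. Of these, Nhlh2 had been called in ESC dCD. The filter also dropped Neurog3 in the comparisons of NPC groups, where it had been called in MLL2dTAG against WT. Atoh1 was dropped between NPC and ESC of MLL2dTAG. Without single libraries the numbers ranged as follows: ESC dCD 2 to 4 higher and 0 to 1 lower, ESC MLL2dTAG 3 to 4 lower, NPC dCD 2 to 3 higher, NPC MLL2dTAG 1 to 2 higher and 3 to 4 lower, NPC MLL2dTAG against dCD 5 to 6 lower, the stage difference in dCD 0 to 1 higher and 1 to 3 lower, and that in MLL2dTAG 1 to 2 higher and 0 to 2 lower. Other causes were not tested. Signs turned only for differences that had not passed the test. Neurod4 in NPC MLL2dTAG was -0.03 with upper-quartile scaling and ranged from -0.02 to 0.18 without single libraries. The ranges without single libraries were -0.21 to 0.12 for Neurog1 in NPC MLL2dTAG, -0.31 to 0.01 for Neurod4 in NPC MLL2dTAG against dCD, -1.12 to 0.37 for Neurog3 and -0.2 to 0.26 for Atoh1 in NPC dCD, and -0.79 to 0.24 for Atoh1 between NPC and ESC of MLL2dTAG. In ESC dCD they were -0.18 to 4.84 for Neurod4 and -2.93 to 3.01 for Nhlh1, and in ESC MLL2dTAG -2.91 to 2.67 for Nhlh1. For the stage difference in dCD they were -1.37 to 0.12 for Neurog3, -0.24 to 0.01 for Neurod1, -4.59 to 0.42 for Neurod4 and -2.34 to 3.59 for Nhlh1, and in MLL2dTAG -2.26 to 3.33 for Nhlh1.

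With replicate numbers as a block, all 20 counts stayed as they were (NPC MLL2dTAG: 2 higher, 5 lower). Deviations of same-numbered libraries correlated only weakly, at -0.0806 to 0.0518 over 24 pairs, 11 of which were best with their own number. Between lines 3 of 15 were best with their own number. Between NPC and ESC of a line 8 of 9 were, at -0.00598 to 0.0435, so the numbers may pair those libraries weakly. Genes with few counts are the limit of these data: a count of 0 allows up to 0.0652 to 0.154 CPM, and Neurog3 in NPC and 6 of the 9 genes in WT ESC lie near it.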

Other observations

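Genes of the same lists were also read in ESC, where the 9 factors were mostly near 0. Of 18 measured proneural targets and neurogenic genes, 3 rose and 4 fell in ESC of dCD (median 0.02), and 2 rose and 9 fell in ESC of MLL2dTAG (median -0.39, against 0 over all genes). Over all genes 25.7% rose and 22.6% fell in dCD, and 28.7% and 28.2% in MLL2dTAG. Dll1 was at 30.6 ± 1.15 CPM in WT ESC (SD, n = 3) and fell in both lines, to 11.2 ± 1.33 CPM in dCD (-1.45, SE 0.09) and 7.08 ± 0.569 CPM in MLL2dTAG (-2.11, SE 0.09), whereas in NPC it was above WT in both. Insm1, a neurogenic zinc finger gene, rose in ESC of dCD by 2.49 (SE 0.20) and fell by 3.70 (SE 0.47) in ESC of MLL2dTAG, with 6 counts against 66 in WT. The Id genes Id1 and Id3 rose in ESC of dCD by 1.36 (SE 0.10) and 1.43 (SE 0.10) and in ESC of MLL2dTAG by 1.71 (SE 0.09) and 1.27 (SE 0.10). Pou4f2, a factor of retinal and sensory neurons, reached 12.3 ± 1.14 CPM in ESC of MLL2dTAG against 1.92 ± 0.461 in WT ESC, a rise of 2.64 (SE 0.18), and rose by 1.34 (SE 0.20) in dCD. Msc, a bHLH factor of muscle precursors, rose by 2.57 (SE 0.19) in MLL2dTAG and 0.84 (SE 0.21) in dCD.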
